A study of Drosophila melanogaster with 4 samples.

Results

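Plexins, semaphorins and ephrins are cell surface and secreted proteins that steer growing axons and other motile cells. A plexin is the receptor of a semaphorin, and an Eph receptor binds an ephrin on a neighbouring cell. In Drosophila, PlexA is the receptor of the transmembrane semaphorins Sema1a and Sema1b, PlexB is the receptor of the secreted semaphorins Sema2a and Sema2b, and Eph is the receptor tyrosine kinase that binds Ephrin. These 8 genes were followed here by name, out of 13568 genes in the files. PlexA, PlexB, Eph and Ephrin lie on chromosome 4, the small, largely heterochromatic chromosome on which HP1a covers the bodies of active genes. Sema1a lies on 2L, and Sema1b, Sema2a and Sema2b lie on 2R.

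RNA-seq was carried out on larvae of the third instar, with 2 libraries of HP1a mutant larvae and 2 of wildtype larvae. The mutant larvae carried the alleles 04 and 05 of *Su(var)205*, the gene of heterochromatin protein 1a (HP1a), over each other, and were picked from a cross of balanced stocks by the absence of GFP. Such larvae reach this stage on HP1a supplied by the mother. Wildtype larvae were Oregon R, so the mutants were not compared with siblings of the same cross, and all stocks were kept at 25°C and 70% humidity. In RNA of larvae, which hold many tissues, a smaller number of cells of a type and less RNA per cell cannot be told apart. Values are FPKM (fragments scaled by the length of the transcript and the depth of the library) as deposited, summed over the RefSeq transcripts of a gene.

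*Su(var)205* (2L, 8209626 to 8211133, genome Release 5) had an FPKM of 27.8 and 20.1 in the mutant libraries, against 125 and 137 in the wildtype libraries (log2 fold change of FPKM + 1 of -2.42, adjusted p = 0.00275 in limma, a moderated linear model fitted across genes). Most other genes were lower in the mutant too. The median gene had 4.08 and 3.38 FPKM in the mutant libraries and 8.21 and 8.93 FPKM in the wildtype libraries. By the deposited confidence bounds of 1 gene, PlexB, 1 fragment was worth between 0.0174 and 0.0189 FPKM in all 4. The depth of the libraries was similar by this estimate, and their total counts were not derived. Larval stage markers moved with the genotype as well. The 8 stage genes of the list, mostly salivary glue genes of the late larva, summed to 476 and 766 FPKM in the mutant libraries and to 54081 and 57325 FPKM in the wildtype libraries. Among them, Sgs7 had 53.1 and 315 FPKM in the mutant against 27082 and 29310 FPKM in wildtype, and Sgs8 had 16.0 and 67.1 FPKM against 11759 and 11075 FPKM. Of the 8, 7 fell and ng1 rose, and Eig71Ea was listed at 0 in both mutant libraries. The stage of the larvae and their genotype cannot be told apart in this design, for the guidance genes as for all others.

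All 8 guidance genes had lower FPKM in both mutant libraries than in either wildtype library. Over all genes with expression, this order was found for 66.0%. The secreted semaphorins Sema2b and Sema2a and their receptor PlexB had a mutant mean of 4.35%, 11.8% and 20.9% of their wildtype mean, the lowest shares of the 8, and Sema1a was at 22.5%. PlexA, Eph, Sema1b and Ephrin were between 38.5% and 54.8%. Of the 6 genes that could be tested, 4 fell (PlexA, PlexB, Eph and Sema2a) and 0 rose at an FDR of 0.01 in limma. Among all genes tested, 34.4% fell and 6.98% rose at this FDR, so that a fall by itself was common. All 6 had an unadjusted p under 0.05 in limma, as had 6723 of the 9447 genes tested.

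**Figure D1:**
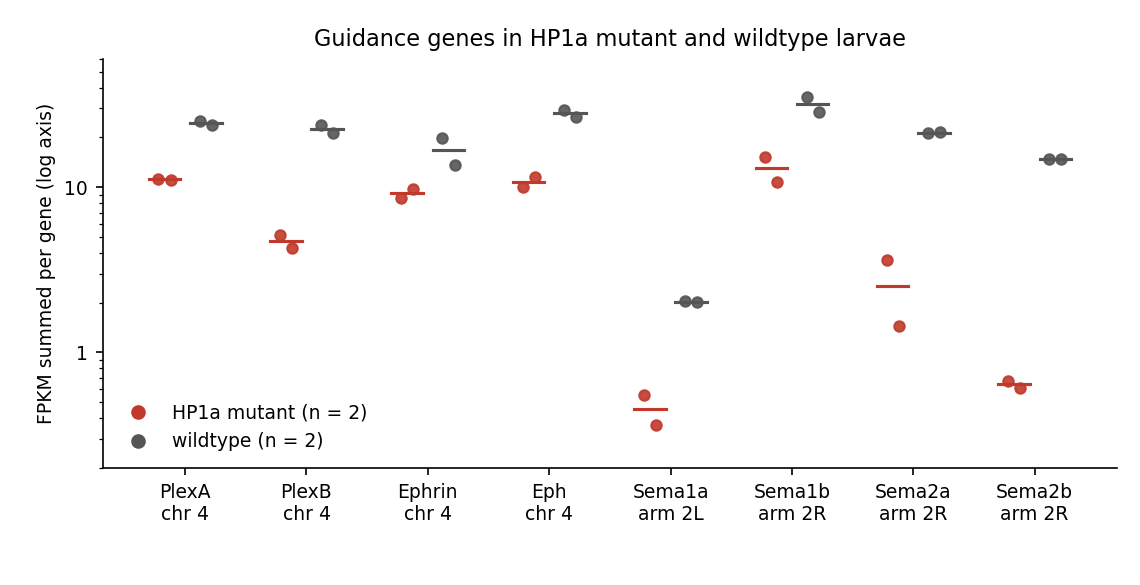
FPKM of each guidance gene, summed over its RefSeq transcripts, on a log axis, with a point for each library and a bar for the mean of 2 libraries. The mutant points lie below the wildtype points for all 8 genes, and the gap is widest for Sema2b (0.674 and 0.608 in the mutant, 14.7 in both wildtype libraries).

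Among the receptors, PlexB (CG17245, chromosome 4, 53434 to 64403) has 1 transcript in the files. Its FPKM was 5.14 and 4.28 in the mutant libraries, against 23.7 and 21.3 in the wildtype libraries. The replicates lay close together in both genotypes and the groups were far apart. The deposited confidence bounds imply 294 and 237 fragments behind the mutant values and 1254 and 1157 behind the wildtype values. In limma this was a log2 fold change of FPKM + 1 of -2.04 ± 0.17 (SE here and below, adjusted p = 0.00259), rank 3 from the lowest among the 62 chromosome 4 genes tested.

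PlexA (CG11081, 1034030 to 1047720) had 11.2 and 11.1 FPKM in the mutant libraries and 25.0 and 23.7 FPKM in the wildtype libraries. limma gave it a log2 fold change of -1.06 ± 0.15 (adjusted p = 0.00548), which is rank 30 of 62 on the chromosome and close to the chromosome 4 median of -1.03. Since FPKM are per length, the receptors can also be set side by side within a library. PlexB was at 0.459 and 0.386 times the FPKM of PlexA in the mutant libraries, and at 0.945 and 0.899 times in the wildtype libraries. The ratio was lower in the mutant and did not overlap between genotypes (exact permutation p = 0.33, two-sided, the smallest that 2 libraries against 2 can give).

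Eph (CG1511, 631312 to 641552) had 10.0 and 11.5 FPKM in the mutant libraries, against 29.3 and 26.6 FPKM in the wildtype libraries. The genotypes were well separated. limma gave it a log2 fold change of -1.30 ± 0.17 (adjusted p = 0.00452), rank 17 of 62 on chromosome 4. All 3 receptor genes of the group therefore passed, where 46.8% of the chromosome 4 genes tested (29 of 62) passed in this direction.

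Among the ligands, Ephrin (CG1862, 592383 to 598159) is separated from Eph by 33152 bp. Its FPKM was 8.56 and 9.75 in the mutant libraries and 19.9 and 13.6 in the wildtype libraries. The wildtype libraries differed more from each other than the mutant libraries did, and the change did not pass (log2 fold change -0.78 ± 0.24, adjusted p = 0.0413 in limma). The value depends on which rows are counted. A further transcript, NM_166772, has the start and end of the Ephrin rows but no gene in the reference, and it had 6.27 and 6.47 FPKM in the mutant against 27.6 and 28.7 FPKM in wildtype. With this row added, Ephrin had 14.8 and 16.2 FPKM in the mutant and 47.5 and 42.3 FPKM in wildtype, and its log2 fold change was -1.47 (adjusted p = 0.00354 from limma). At the PlexA locus 2 such rows, NM_166806 and NM_001038715, moved the PlexA change to -1.30. These rows were added after their values were seen. With these rows, the Eph to Ephrin ratio was 0.676 and 0.708 in the mutant and 0.617 and 0.629 in wildtype. Without them it was 1.17 and 1.18 in the mutant and 1.47 and 1.96 in wildtype, so that the direction of this ratio turned with the rows counted. The PlexB to PlexA ratio with these rows was 0.302 and 0.257 in the mutant and 0.522 and 0.524 in wildtype. It kept its direction, but the plexins, close to level in wildtype without the rows, were not level there with them.

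The secreted semaphorins Sema2b and Sema2a are neighbours on 2R, 69430 bp apart, and act through PlexB. Sema2a (CG4700, 12387701 to 12420934) had 3.61 and 1.45 FPKM in the mutant libraries, against 21.2 and 21.5 FPKM in the wildtype libraries. The mutant libraries differed more between themselves than the wildtype libraries, and both lay far below wildtype. limma gave it a log2 fold change of -2.73 ± 0.35 (adjusted p = 0.00443), rank 539 among the 9447 genes tested. Sema2b (CG33960, 12274053 to 12318270) had 0.674 and 0.608 FPKM in the mutant libraries and 14.7 in each wildtype library. It was not tested, because Cufflinks reported too little data for both of its transcripts in mutant replicate 2, where the upper bound of each was 1.68 and 1.67 FPKM. The difference in mean log2(FPKM + 1) was -3.26, lower than for the other 7 genes. When genes of any status were tested, Sema2b passed (adjusted p = 0.00225 from limma). Menl-1 and Menl-2 lie within the Sema2b locus, and each of their transcripts had at most 2.10 FPKM in any library.

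The transmembrane semaphorins act through PlexA. Sema1b (CG6446, 2R, 13560344 to 13571000) had the highest mean FPKM of the 8 genes in both genotypes when the rows without a gene were left out, with 15.3 and 10.8 FPKM in the mutant libraries and 34.9 and 28.5 FPKM in the wildtype libraries. Its log2 fold change of -1.23 ± 0.24 did not pass the FDR (adjusted p = 0.0119 from limma), and was -1.46 without mutant replicate 1. Sema1a (CG18405, 2L, 8542009 to 8671276) was the lowest of the group, with 0.550 and 0.362 FPKM in the mutant libraries and 2.03 in each wildtype library. Its mean log2(FPKM + 1) of 1.07 was under the cutoff of 1.4 for testing. With the low-value filter dropped, 1631 of the 12561 genes tested fell, and Sema1a was among them (adjusted p = 0.00929 from limma). The mutant mean was 22.5% of the wildtype mean, while the difference on the log2(FPKM + 1) scale was only -1.06, since a pseudocount of 1 compresses changes of genes at this level.

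The order of levels changed with the genotype in the middle of the range. Without the rows that have no gene, mean FPKM in the mutant libraries ran from Sema1b through PlexA, Eph, Ephrin, PlexB and Sema2a to Sema2b and Sema1a. In the wildtype libraries it ran from Sema1b through Eph, PlexA, PlexB, Sema2a and Ephrin to Sema2b and Sema1a. Neighbours whose replicates overlapped, and whose order is therefore not set, were Sema1b and PlexA, and PlexA and Eph in the mutant. In wildtype they were Sema1b and Eph, PlexB and Sema2a, and Ephrin and Sema2b. With the added rows, PlexA (16.8) and Ephrin (15.5) had higher means than Sema1b (13.0) in the mutant, and Ephrin (44.9) and PlexA (43.0) had higher means than Sema1b (31.7) in wildtype, so the places of PlexA and Ephrin in the order depend on the rows counted. The means of PlexB and its ligands spanned 0.641 to 4.71 FPKM in the mutant and 14.7 to 22.5 FPKM in wildtype.

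These changes were read against the shift of all genes. The median log2 fold change was -0.84 over the 9447 genes tested and -1.27 over the 6 guidance genes tested. Relative to the median of all genes tested, Sema2b lay at -2.42 (untested), Sema2a at -1.90 and PlexB at -1.21. PlexA lay at -0.23, Eph at -0.46, Sema1b at -0.39, Sema1a at -0.22 (untested) and Ephrin at 0.05. The pseudocount compresses the value of Sema1a, whose mutant mean was 22.5% of its wildtype mean, against 20.9% for PlexB. After the libraries were brought to a common median, the share of calls that were lower was 44.6% in place of 83.1%, and 10.0% of the genes tested fell. Only PlexB then passed among the 6, at a log2 fold change of -1.22 (adjusted p = 0.00723 from limma). Sema2a was at -1.99 (adjusted p = 0.0106 from limma). Of the untested genes, Sema2b was at -2.67 and Sema1a at -0.63. PlexA, Eph and Sema1b were at -0.19, -0.43 and -0.35 and did not pass, and Ephrin turned to 0.07 (-0.58 with the further transcript). With quantile normalization PlexB and Sema2a passed, at -1.22 and -1.85, and Ephrin was at 0.01. Of the 9447 genes tested, 876 fell and 1004 rose under that normalization. On the deposited scale without wildtype replicate 1 or wildtype replicate 2, PlexB was at -1.97 and -2.12 and Sema2a at -2.75 and -2.72. PlexA was at -1.03 and -1.10, Eph at -1.23 and -1.37, Sema1b at -1.09 and -1.37, and Ephrin at -0.52 and -1.04. In any fit with a library left out, the lone library of its genotype is assumed to vary like those of the other genotype. This holds for a lone mutant library as for a lone wildtype library, so the calls of such fits were not counted.

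**Figure D2:**
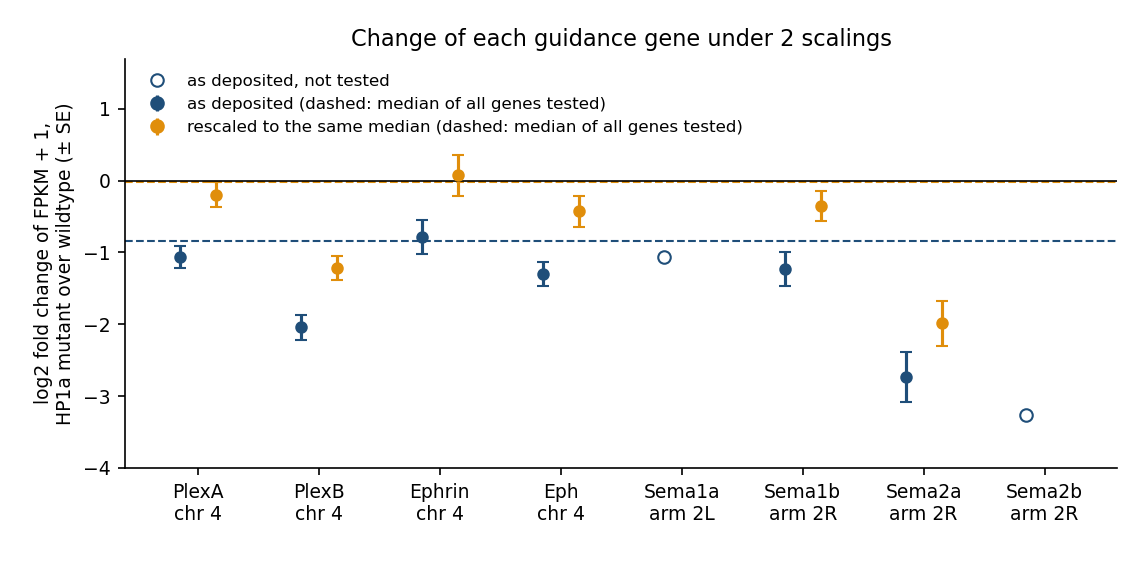
Log2 fold change of FPKM + 1, HP1a mutant over wildtype, as deposited (blue) and after rescaling (orange), with standard errors (2 libraries per genotype). Dashed lines give the median of all genes tested. Sema1a and Sema2b, not tested, are open blue points without an error bar or a rescaled point. PlexB (-2.04 and -1.22) and Sema2a (-2.73 and -1.99) lie well below the median under both scalings, while Ephrin (-0.78 and 0.07) lies near it under both. With the further transcript at its locus, which is not drawn, Ephrin was lower, at -1.47 and -0.58.

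A ratio within a library does not depend on how that library was scaled. PlexB was at 7.63 and 7.04 times the FPKM of Sema2b in the mutant libraries, and at 1.61 and 1.45 times in the wildtype libraries, a log2 difference of 2.27 that was 1.22 with a pseudocount of 1 in both genes. The ratio in mutant replicate 2 rests on the Sema2b rows with too little data, whose upper bounds of 1.68 and 1.67 FPKM allow a much lower ratio. Against Sema2a it was at 1.42 and 2.96 times in the mutant and at 1.12 and 0.990 times in wildtype, a log2 difference of 0.96 that was 1.49 without mutant replicate 1 and 0.44 without mutant replicate 2. Sema2b was at 0.187 and 0.420 times the FPKM of Sema2a in the mutant and at 0.695 and 0.685 times in wildtype, a log2 difference of -1.30 that was -0.72 without mutant replicate 1. With the pseudocount it was -0.53, and -0.10 without mutant replicate 1. PlexA was at 0.732 and 1.03 times the FPKM of Sema1b in the mutant and at 0.718 and 0.832 times in wildtype, and these overlapped. With the rows added at the PlexA locus, the log2 difference of this ratio was -0.06 in place of 0.17. PlexA was at 20.3 and 30.6 times the FPKM of Sema1a in the mutant and at 12.3 and 11.7 times in wildtype. That difference, 1.06 on the log2 scale, was absent with the pseudocount (0.00 on the log2 scale). A pseudocount of 1 compresses changes at the low FPKM of Sema1a, so this setting cannot decide whether the difference holds. For Sema1b over Sema1a the log2 ratio was 4.80 and 4.90 in the mutant and 4.10 and 3.81 in wildtype, a difference of 0.89 that was -0.17 with the pseudocount. Of the 8 ratios, 7 did not overlap between genotypes as deposited and 5 with the pseudocount. Eph to Ephrin was among both, although its direction turned with the rows counted. The 8 ratios share genes and are not separate observations, and the share of other gene pairs without overlap was not computed. None of the 8 can reach a p below 0.33 in an exact permutation test.

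**Figure D3:**
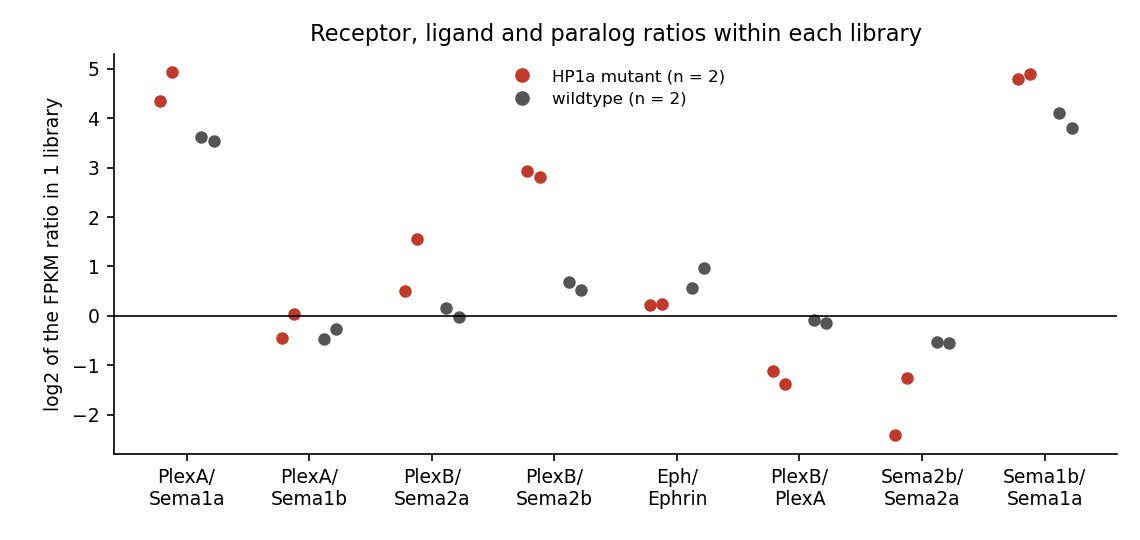
Log2 of the FPKM ratio of the first gene to the second within each library, with a point for each of 2 HP1a mutant and 2 wildtype libraries. The PlexB to PlexA points lie lower in the mutant and the PlexB to Sema2b points lie higher, while PlexA to Sema1b overlaps between genotypes.

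The 8 genes have 26 transcripts in the files, from 1 for PlexB to 6 for Eph. All 26 had a lower mean FPKM in the mutant, and 22 had both mutant libraries below both wildtype libraries. Neither share was computed over all transcripts, so these counts cannot be read as particular to these genes. Among genes with expression, counted as genes and not as transcripts, 66.0% had both mutant libraries below both wildtype libraries. Tested singly, 13 transcripts could be compared and 2 fell at the FDR in limma, where 13.6% of all transcripts tested did. These were the PlexB transcript (NM_079877, adjusted p = 0.00663 from limma) and the Sema2a transcript NM_206134 (log2 fold change -3.04, adjusted p = 0.00598 from limma). NM_206134 had 0.463 and 0.581 FPKM in the mutant libraries and 10.7 and 12.3 FPKM in the wildtype libraries. It made up 12.8% and 40.2% of the Sema2a FPKM in the mutant, against 50.4% and 57.2% in wildtype. The other Sema2a transcripts had 0.0101 to 1.56 FPKM in the mutant and 2.34 to 5.26 FPKM in wildtype. For Eph, NM_166775 and NM_079886 carried most of the signal in both genotypes, with 4.96 and 4.69 FPKM for NM_166775 in the mutant and 11.8 and 12.1 FPKM in wildtype. The other 4 Eph transcripts differed widely between replicates, from 0.00937 to 0.0673 FPKM in mutant replicate 1 and from 0.433 to 1.35 FPKM in mutant replicate 2. Cufflinks divides shared fragments among transcripts, so these low estimates are less certain than the sums per gene.

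**Figure D4:**
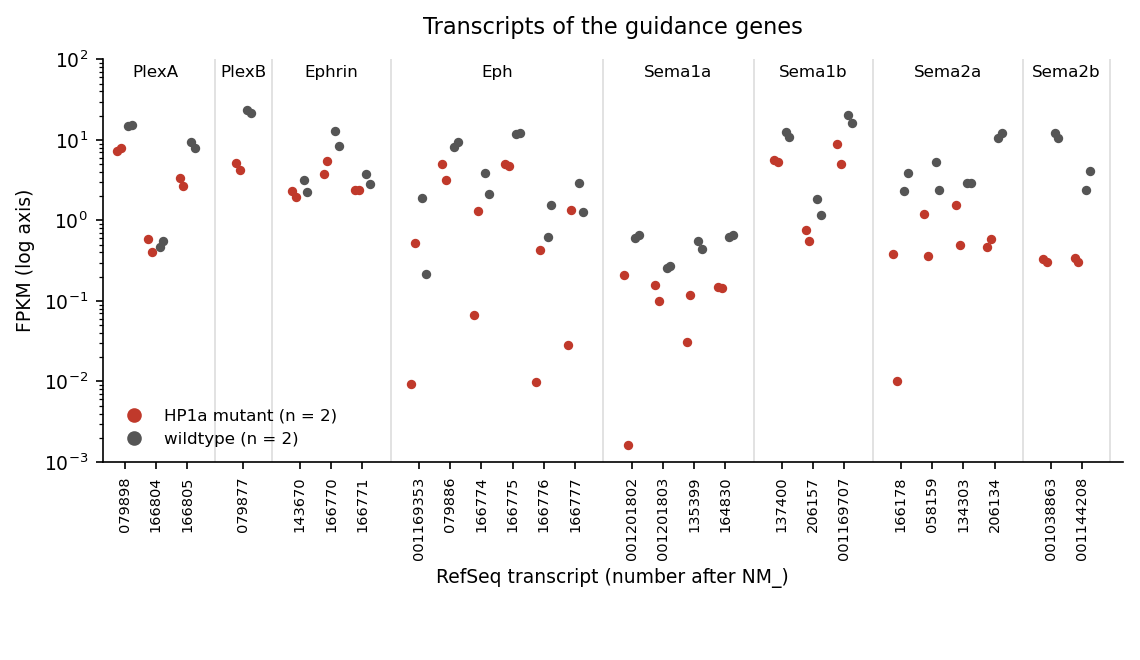
FPKM of the 26 RefSeq transcripts of the guidance genes on a log axis, with 2 points for each genotype. The Sema2a transcript NM_206134 lies at 0.463 and 0.581 FPKM in the mutant and at 10.7 and 12.3 FPKM in wildtype, and the 4 minor transcripts of Eph lie far apart in the mutant libraries.

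Partners of these pathways were read from 3 lists chosen by role. Of 13 effectors and partners of plexins and semaphorins, 7 fell, 0 rose and 6 did not pass, with a median log2 fold change of -1.07, where 34.4% of all genes tested fell with a median of -0.84. The lowest were otk, a transmembrane pseudokinase that associates with PlexA, at 1.07 and 0.903 FPKM in the mutant against 9.30 and 9.75 FPKM in wildtype (log2 fold change -2.41, adjusted p = 0.00231 from limma), and cv-c, at -2.22. The cytosolic enzyme Mical, which takes apart actin filaments downstream of PlexA, had 4.23 and 2.60 FPKM in the mutant and 14.7 and 16.8 FPKM in wildtype. It is named for its role and was chosen after its values were seen, as were the 2 genes of the list with a positive change, Gyc76C (0.13) and Rac2 (0.39), neither of which passed.

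In the list of netrin, slit and Wnt guidance genes, 7 of the 8 genes tested fell and 0 rose, with a median of -1.91. The other 4 of the 12 genes were not tested. The lowest were drl, a receptor of Wnt5, with 1.30 and 1.18 FPKM in the mutant and 15.3 and 14.2 FPKM in wildtype (log2 fold change -2.82, adjusted p = 0.00211 from limma), and fra, the attractive netrin receptor, at -2.37 (adjusted p = 0.00245 from limma). Of the Eph and receptor phosphatase list, 3 of 10 genes tested fell and 0 rose, with a median of -1.06, a share near the 34.4% of all genes tested. Ptp52F had 8.10 and 7.91 FPKM in the mutant and 27.3 and 28.1 FPKM in wildtype (log2 fold change -1.67), and Lar was at -1.21. After rescaling, 3 genes of the first list, 3 of the second and 0 of the third fell, 1 gene of the first list rose, and the medians were -0.27, -1.22 and -0.25, where 10.0% of all genes tested fell with a median of -0.02.

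**Figure D5:**
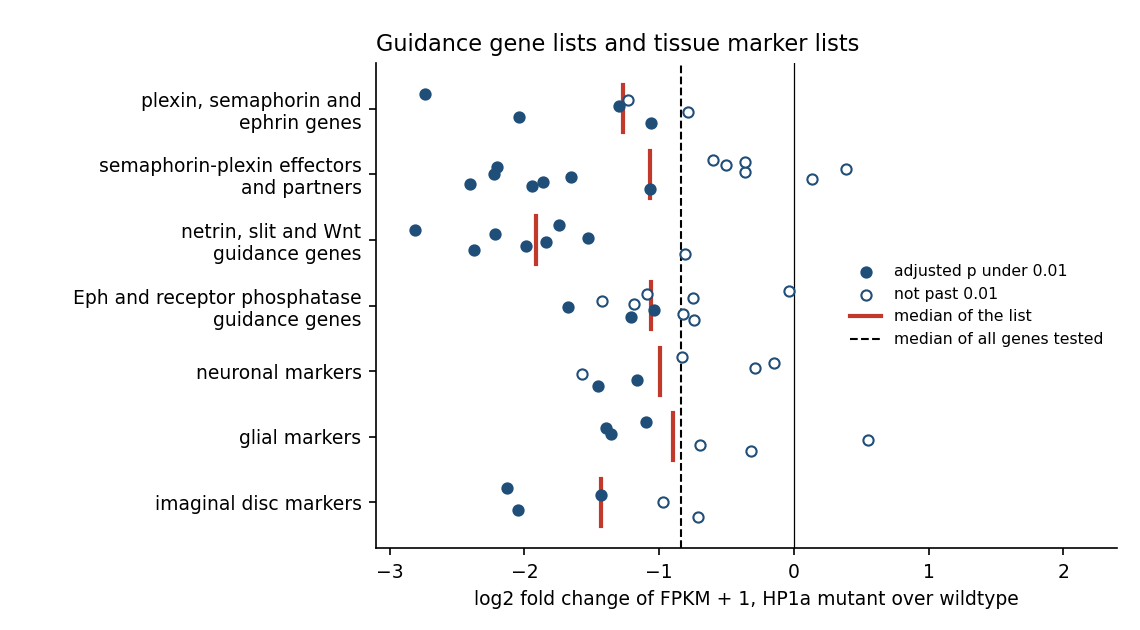
Log2 fold change of FPKM + 1, HP1a mutant over wildtype, for the tested genes of each list, with filled points for genes past an adjusted p of 0.01, a red bar for the median of the list and a dashed line for the median of all genes tested (-0.84). The netrin, slit and Wnt list has its median at -1.91, and the median of the neuronal markers is -0.997.

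Marker lists of 3 tissues that use guidance genes also summed to lower FPKM in the mutant as deposited. After rescaling, 0 of 6 neuronal, 0 of 6 glial and 2 of 5 disc markers tested fell, with medians of -0.26, -0.06 and -0.63. Among all genes tested, 10.0% then fell, with a median of -0.02. Of 12 neuronal markers, 6 were tested, 2 fell and 0 rose, a share near the 34.4% of all genes tested, and the list summed to 33.6 and 27.4 FPKM in the mutant and to 60.1 and 64.7 FPKM in wildtype. Syt1, the calcium sensor of synaptic vesicles, had 7.90 and 10.4 FPKM in the mutant and 22.0 and 21.1 FPKM in wildtype, and Syx1A had 9.09 and 5.49 FPKM against 7.17 and 10.9 FPKM. The 8 glial markers summed to 153 and 175 FPKM in the mutant and to 400 and 390 FPKM in wildtype, and 3 of 6 tested fell, while the glutamate transporter gene Eaat1, chosen after its values were seen, was at 0.55 and did not pass. Gs2 had 115 and 132 FPKM in the mutant and 331 and 322 FPKM in wildtype, and nrv2 had 17.2 and 17.5 FPKM against 38.0 and 38.4 FPKM. The 8 imaginal disc markers summed to 13.3 and 13.1 FPKM in the mutant and to 52.3 and 62.5 FPKM in wildtype, and 3 of 5 tested fell. The transcription factor genes hth and ap had 1.71 and 1.26 FPKM and 3.45 and 4.44 FPKM in the mutant, against 11.3 and 18.2 FPKM and 11.3 and 13.3 FPKM in wildtype (hth was not tested). None of these 28 markers was listed at 0 in any library. Their part in the change of the guidance genes was not tested.

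The gene most like each guidance gene in its profile was taken as the tested gene with the smallest root mean square difference in centred log2(FPKM + 1) over the 4 libraries. It was Oscillin for PlexB (0.012), MED17 for PlexA (0.014), Sec20 for Eph (0.016), CG31368 for Sema1b (0.029), CG7402 for Ephrin (0.035) and CG15676 for Sema2a (0.038). None of these 6 lies on chromosome 4, which holds only 62 of the 9447 genes tested. Their places therefore say nothing about that chromosome. MED17, for example, had 7.07 and 6.90 FPKM in the mutant and 16.5 and 15.4 FPKM in wildtype, and CG15676 was listed at 0 in mutant replicate 2.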

How the data were processed

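Total RNA of larvae was sequenced as rRNA-depleted libraries. The authors deposited FPKM per RefSeq transcript, estimated by Cufflinks in every library on its own, along with confidence bounds and a status. TopHat and Cufflinks are named in the submitters' processing notes, without versions, and whether strand was used is not stated there. Coordinates are those of genome Release 5. Of 22608 rows, 21388 had a gene in RefSeq (Release 6, used for names only), and their FPKM were summed per gene. Because the unit is FPKM, count tools were not used. Genes with a mean log2(FPKM + 1) above 1.4 and status OK in all 4 libraries (9447 genes) were tested with limma 3.58.1 in R 4.3.3 (moderated, two-sided, with trend), with Benjamini-Hochberg adjustment over all of them at an FDR of 0.01. The bounds imply fragments as the square of FPKM over its error, used only for PlexB, whose locus has 1 row, and they cover counting error only. The total count per library was not derived. Ratios were tested by exact permutation with scipy 1.17.1, and plots were drawn with matplotlib 3.10.9. The fits were tested on simulated data.

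The genes followed and the lists were chosen with earlier results of these data known. Named genes are the 8 guidance genes, *Su(var)205*, up to 2 list genes past the FDR with the largest change in each direction, the 2 markers of each list with the highest wildtype FPKM and the most alike genes, beside those said to be chosen later. As alternatives, the pseudocount was 0.1 or 5, the low-value filter was dropped or set to a mean FPKM over 5, and the fits were rerun with any status, both scalings, transcripts singly, no trend, an FDR of 0.05, a replicate block, each library left out and, chosen after seeing the data, the added rows at shared loci, also with rescaling. Nothing in the sources used here says that the libraries of a genotype came from separate collections of larvae, so p-values measure the spread between these libraries, which may be technical. An item withheld for evaluation is not reported here.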

Additional observations from a re-analysis of the deposited data

How the results depend on the processing

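The count of 4 guidance genes lower in the mutant was 1 with libraries rescaled to a common median, with or without the added rows, 2 with quantile normalization, 2 with transcripts tested singly and 0 to 5 when 1 library was left out. The count was between 3 and 6 under the pseudocounts, filters, status, trend, FDR and added-row (chosen after seeing the data) alternatives on the deposited scale. The 3, with the low-value filter dropped, were PlexA, PlexB and Sema1a, where 1631 of 12561 genes tested fell. Eph and Sema2a did not pass there. With genes of any status it was 5, where 3386 of 10017 fell. At an FDR of 0.05 it was 6, and the share of all genes was not computed. The count of guidance genes higher stayed at 0 under every alternative whose calls were counted. Ephrin changed sign, to 0.0723 with libraries rescaled and 0.0106 with quantile normalization, while PlexA, PlexB, Eph, Sema1b and Sema2a were negative in every fit run. The cause of these changes was not tested, beyond the rescaling itself, which removes the shift of the median gene by construction. Labels give both genotypes the replicate numbers 1 and 2, but same-numbered libraries did not deviate together (correlation 0.028 across 9447 genes), so the numbers were not taken as pairs. With the replicate block, 2 guidance genes passed (PlexB and Sema2a) and 2913 of all genes passed in place of 3908. With 2 libraries a genotype, the limma p-values rest on the spread shared across genes, and values under 1 FPKM, as for Sema1a and Sema2b in the mutant, are the least certain.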
